A study of Mus musculus with 12 samples.

Results

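Interferon-stimulated genes are the antiviral and regulatory genes that cells switch on after interferon binds its receptor. A list of 41 such genes was followed in LSECs (liver sinusoidal endothelial cells, which line the capillaries of the liver) of mice without the scavenger receptors stabilin-1 (Stab1), stabilin-2 (Stab2) or both. The members were chosen by name, with earlier results of these data known. Each gene symbol had 1 row (the row with the highest mean), and 40 of the 41 were among the 24011 genes tested. The remaining gene, Ifi44, was not analysed here. The 12 Affymetrix arrays form 4 groups of 3: wild type (WT), mice lacking Stab1 (Stab1KO), mice lacking Stab2 (Stab2KO) and mice lacking both (Stab DKO, here DKO). All were labelled C57BL/6J and were 3 to 4 months old, and no further allele or agent was named for any group. Each array held RNA pooled from 3 mice, taken directly after isolation with CD146 beads and a purity check by flow cytometry. Such an isolate still holds some other liver cells, and nothing in the labels states that the 4 genotypes were bred as littermates. Values are log2 expression, so a difference of 1 is a doubling.

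Type I interferons bind the IFNAR1 and IFNAR2 receptor, whose kinases activate a transcription factor complex that contains STAT2 and IRF9. This complex binds interferon-stimulated response elements, while interferon gamma acts through its own receptor on an overlapping set of genes that includes Irf1 and the immunity-related GTPases. LSECs are a scavenger endothelium that clears microbial products, modified proteins and nucleic acid complexes from blood, and stabilins are among the receptors they use for uptake.

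The main result concerned the double knockout. Of the 40 genes, 5 were higher in DKO than in WT at an adjusted p under 0.05 in limma (Oasl1, Oasl2, Isg20, Ddx60 and Cmpk2) and 0 were lower. Of all genes tested, 1.80% were called in this comparison, 0.754% higher and 1.05% lower. No member was called in either single knockout against WT. In both DKO replicates 1 and 2, 22 of the 40 were above all 9 arrays of the other genotypes, as 5.67% of all genes were. Of these 22, 8 were above them in DKO replicate 3 as well, as 2.54% of all genes were. As the list was not blind to these data, the shares beside the counts are descriptive.

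The genotypes showed in the targeted genes. Stab1 lay between 12.46 and 12.62 log2 in WT and Stab2KO and between 4.98 and 5.45 in Stab1KO and DKO. Stab2 lay between 12.99 and 13.09 in WT and Stab1KO and between 5.46 and 7.60 in Stab2KO and DKO. The means of 13 LSEC genes other than the stabilins were 12.93 to 12.98 in the 9 arrays outside DKO, and 12.89, 12.90 and 12.70 in DKO. DKO replicate 3 stood apart: its correlation across genes with the other arrays was 0.956 to 0.968. In that array the mean of 14 neutrophil genes was 11.49 log2, against 6.10 and 6.49 in the other DKO arrays and 5.26 to 6.31 outside DKO, and the mean of 10 monocyte genes was 9.46, against 7.03 and 7.45 in the other DKO arrays and 6.32 to 6.99 outside DKO. Differences from WT are therefore given without this array too for the called members and for most others named. In bulk RNA, fewer cells of a type and less RNA per cell cannot be told apart.

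Promoter sequences are shown because interferon acts on its target genes through elements there. RefSeq (GRCm38.p6) gave a window of 250 bases before to 50 after the start for 29 of the 40 members. The core of the interferon-stimulated response element, GAAA followed by 2 bases of any kind and GAAA again, was searched on both strands. It was found in 17 of the 29 members (58.6%), against 3.99% of 27025 genes with a window of the same length. The motif TTCNNNGAA, the gamma-activated site of STAT factors, was also searched. It reads the same on both strands, and a match can share letters with the first motif. It was found in 9 of the 29 (31.0%), against 9.55% of all genes. Among the 7 members called in any comparison that have a window, Ddx60 and Rsad2 held the GAAA repeat, while Oasl1, Oasl2, Cmpk2, Isg20 and Samd9l did not within these bases. Such a match describes letters only. Each stretch below ends at the base before the start and is printed 5′ to 3′ along the gene, with matches of the GAAA repeat on either strand in capitals. The first 2 belong to called members, the next 3 to genes that were highest in DKO replicate 2 and not called, and the last 2 to called members without a match.
Ddx60 (chr8:61927987-61928086, plus strand): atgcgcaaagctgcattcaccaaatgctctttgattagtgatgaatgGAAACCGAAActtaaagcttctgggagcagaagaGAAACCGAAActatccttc
Rsad2 (chr12:26456453-26456582, minus strand): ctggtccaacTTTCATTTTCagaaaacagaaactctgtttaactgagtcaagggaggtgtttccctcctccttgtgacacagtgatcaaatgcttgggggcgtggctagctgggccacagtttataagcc
Ifit1 (chr19:34640779-34640888, plus strand): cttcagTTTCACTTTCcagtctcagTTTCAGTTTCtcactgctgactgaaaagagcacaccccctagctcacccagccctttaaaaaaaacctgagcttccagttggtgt
Isg15 (chr4:156200819-156200918, minus strand): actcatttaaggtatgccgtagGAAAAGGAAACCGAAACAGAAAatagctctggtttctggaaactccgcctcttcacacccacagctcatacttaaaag
Irgm1 (chr11:48871421-48871520, minus strand): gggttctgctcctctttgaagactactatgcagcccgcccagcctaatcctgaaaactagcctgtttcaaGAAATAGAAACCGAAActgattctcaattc
Oasl1 (chr5:114923140-114923239, plus strand): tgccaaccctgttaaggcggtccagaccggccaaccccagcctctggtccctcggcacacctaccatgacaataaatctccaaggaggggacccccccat
Oasl2 (chr5:114896834-114896933, plus strand): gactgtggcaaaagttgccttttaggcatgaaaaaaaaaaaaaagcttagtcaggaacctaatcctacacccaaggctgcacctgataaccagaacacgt

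**Figure D1:**
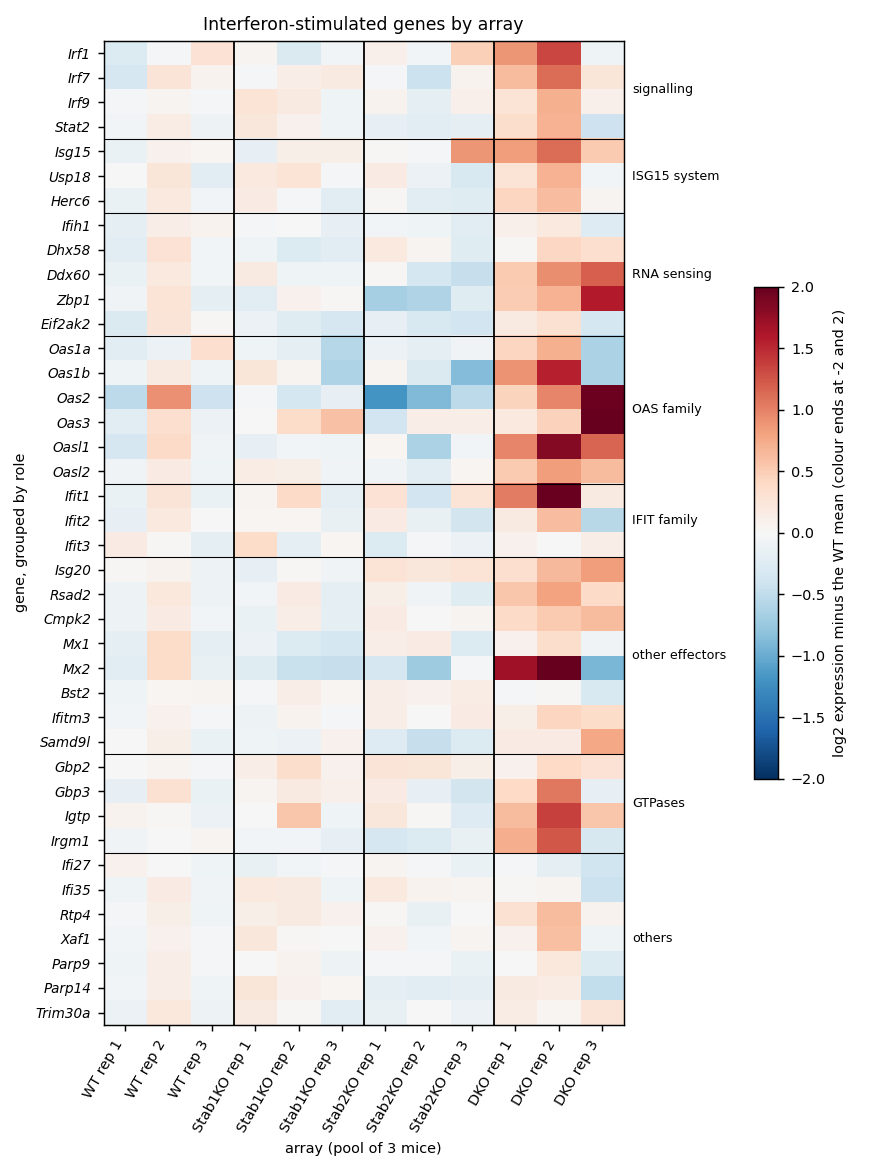
Each row is 1 interferon-stimulated gene, grouped by role, and each column 1 array (a pool of 3 mice). Colour gives the log2 difference from the mean of the 3 WT arrays, from -2 (blue) to 2 (red). DKO replicate 2 is the highest of the 12 arrays for 26 of the 40 genes, as it is for 6.78% of all genes tested. DKO replicate 3 is high for a different set that includes Oas3 and Zbp1.

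In the oligoadenylate synthetase (OAS) family, 2 of 6 members were called higher in DKO than in WT, beside 0.754% of the genes tested. These were Oasl1 and Oasl2, which were also called against Stab1KO, beside 0.546% called higher there. Against Stab2KO there were 3, with Oas2 added, beside 1.30%. Without DKO replicate 3, Oas2 lost that call and Oas1b gained one. OAS proteins sense double-stranded RNA and make the oligoadenylates that activate RNase L, while OASL proteins are their ubiquitin-like relatives. All 6 members on the list lie on chromosome 5, and their median difference between DKO and WT was 0.90 log2, against -0.02 over all genes tested, and 0.69 without DKO replicate 3. Oasl1, which in mice restrains the translation of Irf7, measured 6.73, 7.45 and 6.99 in WT, 6.89, 7.0 and 6.97 in Stab1KO, 7.10, 6.42 and 7.01 in Stab2KO, and 8.04, 8.90 and 8.23 in DKO. All 3 DKO arrays lay above the 9 others, and the 3 other genotypes overlapped. The difference from WT was 1.33 ± 0.25 log2 (SE), a 2.52-fold rise (limma, adjusted p = 0.028), and without DKO replicate 3 it was 1.41 (adjusted p = 0.037).

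Oasl2 measured 9.88, 10.12 and 9.86 in WT, 10.10, 10.06 and 9.88 in Stab1KO, 9.88, 9.74 and 9.99 in Stab2KO, and 10.47, 10.79 and 10.59 in DKO. Again every DKO array was above every other array. The rise over WT was 0.66 ± 0.11 log2, or 1.58-fold (limma, adjusted p = 0.019), and 0.67 without DKO replicate 3 (adjusted p = 0.030). Oasl1 and Oasl2 were also higher in DKO than in Stab1KO, by 1.44 (adjusted p = 0.029) and 0.60 (adjusted p = 0.037), and than in Stab2KO, by 1.55 (adjusted p = 0.017) and 0.74 (adjusted p = 0.013). All 4 of these differences stayed called without DKO replicate 3. They were the 2 members called in all 3 comparisons that involve DKO, which share the DKO arrays.

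Oas2, an active synthetase, measured 6.51, 7.96 and 6.63 in WT, 7.0, 6.69 and 6.87 in Stab1KO, 5.84, 6.15 and 6.51 in Stab2KO, and 7.48, 8.02 and 9.0 in DKO. One WT array reached into the DKO range, while Stab2KO lay wholly below DKO. It was called against Stab2KO, at 2.00 ± 0.42 log2 (4.00-fold, adjusted p = 0.034), and not against WT, at 1.13 ± 0.42 (adjusted p = 0.21). Without DKO replicate 3 the difference from Stab2KO was 1.58 (adjusted p = 0.052) and from WT 0.72 (adjusted p = 0.44).

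Oas3 had the highest difference from WT of the 40 members and was not called. It measured 5.28, 5.83 and 5.38 in WT, 5.49, 5.86 and 6.08 in Stab1KO, 5.12, 5.63 and 5.63 in Stab2KO, and 5.70, 5.96 and 9.15 in DKO. The difference of 1.44 ± 0.70 log2 (adjusted p = 0.34) rested on DKO replicate 3, the array with the high neutrophil genes, and was 0.33 without it. Oas1a and Oas1b showed the opposite order of the DKO arrays. Oas1a measured 7.83, 8.11 and 6.77 in DKO and 7.19 to 7.74 in WT, and was 0.57 above WT without DKO replicate 3 (adjusted p = 0.17). Oas1b measured 7.54, 8.20 and 6.00 in DKO and 6.55 to 6.82 in WT, and without DKO replicate 3 it was 1.23 above WT (adjusted p = 0.080) and 1.60 above Stab2KO (adjusted p = 0.028). Mice have several near-identical Oas1 genes, so values of Oas1a and Oas1b may mix copies, and RefSeq lists Oas1b of this strain as a transcribed pseudogene.

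**Figure D2:**
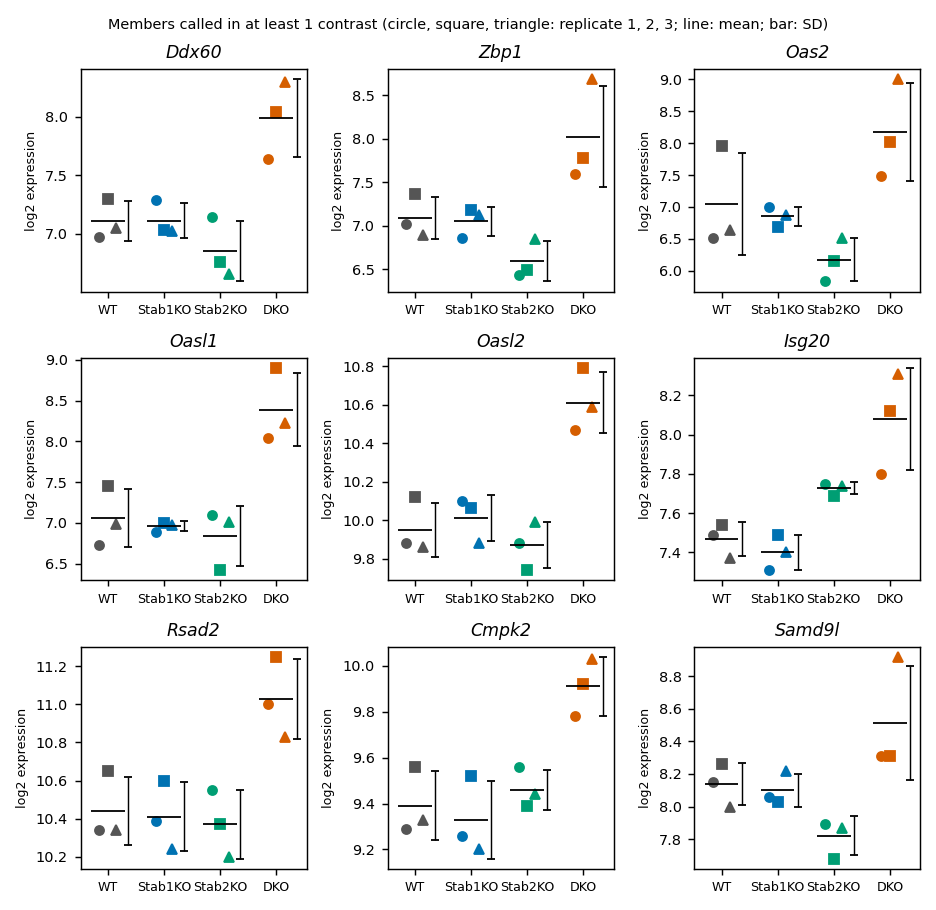
Log2 expression of the 9 genes called in at least 1 comparison, by genotype. Symbols are the 3 arrays of a group (circle, square and triangle for replicates 1, 2 and 3), lines the group means and bars the SD. For 8 of the 9 genes all 3 DKO arrays lie above the other 9, and Oas2 is the exception, with a WT array at 7.96. The 9 genes were picked by DKO comparisons of these same arrays, which favours such a gap. Among all 40 members the count is also 8, beside 2.54% of all genes.

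Among the direct antiviral effectors, 2 of 8 measured members were called higher in DKO than in WT, as 0.754% of all genes were. The median difference of the 8 was 0.45 log2 (0.37 without DKO replicate 3). Isg20 encodes an exonuclease that degrades RNA. It measured 7.49, 7.54 and 7.37 in WT, 7.31, 7.49 and 7.40 in Stab1KO, 7.75, 7.69 and 7.74 in Stab2KO, and 7.80, 8.12 and 8.31 in DKO. The lowest DKO array was just above the highest Stab2KO array, and Stab2KO itself lay above WT without overlap. Isg20 rose by 0.61 ± 0.12 log2 against WT (1.53-fold, adjusted p = 0.028) and by 0.68 against Stab1KO (adjusted p = 0.029). Against Stab2KO the difference was 0.35 (adjusted p = 0.13). Without DKO replicate 3 the difference from WT was 0.50 (adjusted p = 0.046) and from Stab1KO 0.56 (adjusted p = 0.033).

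Cmpk2 and Rsad2 are neighbours on chromosome 12. Cmpk2 encodes a mitochondrial nucleotide kinase, and Rsad2 encodes viperin, which makes a chain-terminating nucleotide. Cmpk2 measured 9.29, 9.56 and 9.33 in WT, 9.26, 9.52 and 9.20 in Stab1KO, 9.56, 9.39 and 9.44 in Stab2KO, and 9.78, 9.92 and 10.03 in DKO. Its DKO values exceeded the 9 others. The rise over WT was 0.52 ± 0.11 log2 (1.43-fold, adjusted p = 0.045) and over Stab1KO 0.58 (adjusted p = 0.040), and without DKO replicate 3 the differences were 0.46 (adjusted p = 0.096) and 0.52 (adjusted p = 0.071).

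Rsad2 measured 10.34, 10.65 and 10.34 in WT, 10.39, 10.60 and 10.24 in Stab1KO, 10.55, 10.37 and 10.20 in Stab2KO, and 11, 11.25 and 10.83 in DKO, again with no overlap between DKO and the rest. It was called against Stab2KO (0.65 ± 0.14, 1.57-fold, adjusted p = 0.039). The difference from WT was 0.58 ± 0.14 (adjusted p = 0.069), and 0.68 without DKO replicate 3 (adjusted p = 0.054), where the difference from Stab2KO was 0.75 (adjusted p = 0.030).

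Samd9l, which restricts poxviruses and slows translation, measured 8.15, 8.26 and 8.0 in WT, 8.06, 8.03 and 8.22 in Stab1KO, 7.89, 7.68 and 7.87 in Stab2KO, and 8.31, 8.31 and 8.92 in DKO. DKO lay above the rest, 2 of its arrays narrowly, and Stab2KO lay below WT. Its difference was called against Stab2KO (0.70 ± 0.15, 1.62-fold, adjusted p = 0.039, and 0.50 with adjusted p = 0.035 without DKO replicate 3) and was 0.38 against WT (adjusted p = 0.25, and 0.17 with adjusted p = 0.52 without that array).

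Mx2, of the dynamin-like Mx GTPases, was split between the DKO arrays. It measured 6.83, 7.40 and 6.89 in WT, 6.79, 6.60 and 6.58 in Stab1KO, 6.71, 6.33 and 7.01 in Stab2KO, and 8.73, 9.37 and 6.13 in DKO. DKO replicate 3 was the lowest of the 12 arrays and the other DKO arrays were the highest. With all arrays the difference from WT was 1.03 ± 0.63 log2 (adjusted p = 0.45), and without that array it was 2.01 ± 0.24 (adjusted p = 0.0034). Mx1 stayed between 3.64 and 4.36 in all 12 arrays, below the array median of 5.11. C57BL/6 mice are known to carry a defective Mx1, and RefSeq lists both Mx genes of this strain as transcribed pseudogenes. Ifitm3, which blocks viral entry, had high values throughout (12.16 to 12.42 outside DKO; 12.38, 12.69 and 12.63 in DKO) and a difference from WT of 0.31 ± 0.09 (adjusted p = 0.14). Bst2, or tetherin, which holds budding virus at the membrane, differed from WT by -0.11 (adjusted p = 0.64).

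RNA and nucleic acid sensors gave 1 called gene of 5 against WT and 2 against Stab2KO, where 1.80% and 3.42% of all genes were called. Ddx60, a helicase linked to RNA sensing whose promoter carries 2 motif matches (above), measured 6.97, 7.30 and 7.05 in WT, 7.29, 7.03 and 7.02 in Stab1KO, 7.14, 6.76 and 6.65 in Stab2KO, and 7.64, 8.04 and 8.30 in DKO. DKO did not overlap any other genotype. The rise was 0.89 ± 0.18 log2 over WT (1.85-fold, adjusted p = 0.036) and 1.14 ± 0.18 over Stab2KO (2.21-fold, adjusted p = 0.015). Against Stab1KO it was 0.88 (adjusted p = 0.052). Without DKO replicate 3 the difference from WT was 0.73 (adjusted p = 0.071) and from Stab2KO 0.99 (adjusted p = 0.022).

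Zbp1, the Z-nucleic acid sensor that can trigger necroptosis, measured 7.02, 7.36 and 6.89 in WT, 6.86, 7.18 and 7.12 in Stab1KO, 6.43, 6.49 and 6.85 in Stab2KO, and 7.59, 7.78 and 8.68 in DKO. DKO values were above the rest and Stab2KO values below WT. The difference was 1.43 ± 0.25 against Stab2KO (2.69-fold, adjusted p = 0.021, and 1.10 with adjusted p = 0.013 without DKO replicate 3) and 0.93 ± 0.25 against WT (adjusted p = 0.095, and 0.60 with adjusted p = 0.12 without that array). The classical cytosolic sensors showed smaller differences from WT: Dhx58, which encodes LGP2, differed by 0.26 (adjusted p = 0.44), with 7.93, 8.32 and 8.23 in DKO and 7.67, 8.19 and 7.84 in WT. Ifih1, which encodes MDA5, differed by 0.01, and Eif2ak2, the kinase PKR that stops translation, by 0.05. With DKO replicate 3 left out these were 0.14 (adjusted p = 0.63) and 0.24 (adjusted p = 0.51).

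The transcription factors of the pathway were among the genes split between the DKO arrays. None of the 4 was called against WT, where 1.80% of all genes were, and their median difference was 0.51 log2. It was 0.70 without DKO replicate 3, with Irf1 called, where 1.77% of all genes were. Irf1, a factor that drives interferon gamma responses, measured 10.17, 10.41 and 10.73 in WT, 10.49, 10.15 and 10.38 in Stab1KO, 10.54, 10.39 and 10.91 in Stab2KO, and 11.33, 11.77 and 10.36 in DKO. Here 2 DKO arrays were above all others and the third lay inside the WT range. The difference from WT was 0.71 ± 0.30 (adjusted p = 0.27), and 1.11 ± 0.20 without DKO replicate 3 (adjusted p = 0.026). Irf7, which amplifies type I interferon production, measured 9.34, 9.93 and 9.74 in WT and 10.30, 10.79 and 9.91 in DKO, with a difference of 0.66 ± 0.22 (adjusted p = 0.16) and of 0.88 without DKO replicate 3 (adjusted p = 0.064). Irf9 and Stat2, the subunits that act at the response element, differed from WT by 0.36 (adjusted p = 0.27) and 0.21 (adjusted p = 0.69), and by 0.49 (adjusted p = 0.15) and 0.52 (adjusted p = 0.073) without that array. Without it, Stat2 was called against Stab2KO, at 0.70 (adjusted p = 0.023), as was Irf7, at 1.01 (adjusted p = 0.031). In Stat2 the DKO arrays ran from the lowest of the 12 (9.53) to the highest (10.63).

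The ISG15 system attaches the ubiquitin-like ISG15 to proteins and removes it again. Isg15 itself measured 6.42, 6.65 and 6.60 in WT, 6.40, 6.68 and 6.67 in Stab1KO, 6.59, 6.54 and 7.44 in Stab2KO, and 7.40, 7.67 and 7.08 in DKO. All DKO arrays were above WT and Stab1KO, while 1 Stab2KO array lay among them. The difference from WT was 0.83 ± 0.22 (adjusted p = 0.098). Usp18, the enzyme that removes ISG15 and also restrains the interferon receptor, differed by 0.31 (adjusted p = 0.46), and Herc6, the mouse ISG15 ligase, by 0.37 (adjusted p = 0.27). Leaving out DKO replicate 3, the differences were 0.98 for Isg15 (adjusted p = 0.072), 0.49 for Usp18 (adjusted p = 0.25) and 0.52 for Herc6 (adjusted p = 0.10).

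The IFIT proteins bind viral RNA, and their genes lie together on chromosome 19. Ifit1 measured 8.19, 8.58 and 8.18 in WT, 8.37, 8.71 and 8.12 in Stab1KO, 8.61, 7.93 and 8.60 in Stab2KO, and 9.35, 10.29 and 8.50 in DKO. Only DKO replicate 3 fell into the range of the other genotypes. The difference from WT was 1.07 ± 0.37 (adjusted p = 0.19), and 1.51 ± 0.30 without that array (adjusted p = 0.034). Ifit2 and Ifit3 differed from WT by 0.08 (adjusted p = 0.92) and 0.07 (adjusted p = 0.88), and by 0.40 (adjusted p = 0.35) and 0.04 (adjusted p = 0.96) without DKO replicate 3. The differences between the 3 genes were not tested. Ifit3 has a near-identical copy, Ifit3b, and its value may mix both.

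The interferon-inducible GTPases attack the vacuoles of intracellular microbes. None of the 4 was called against WT, where 1.80% of all genes were, and their median difference was 0.49. It was 0.85 without DKO replicate 3, with Irgm1 called, where 1.77% of all genes were. Igtp, also called Irgm3, measured 8.56, 8.52 and 8.37 in WT, 8.48, 9.05 and 8.41 in Stab1KO, 8.71, 8.51 and 8.23 in Stab2KO, and 9.12, 9.85 and 9.04 in DKO. Only 1 Stab1KO array reached the lowest DKO value. Its difference from WT was 0.85 ± 0.23 (adjusted p = 0.092). Irgm1, a regulator of the other GTPases, measured 9.77, 9.85 and 9.90 in WT, 9.78, 9.78 and 9.67 in Stab1KO, 9.50, 9.56 and 9.69 in Stab2KO, and 10.56, 11.08 and 9.52 in DKO. DKO replicates 1 and 2 were clear of the other 9 and the third lay among the Stab2KO arrays. The difference from WT was 0.55 ± 0.29 (adjusted p = 0.38), and 0.98 ± 0.13 without DKO replicate 3 (adjusted p = 0.0069). The guanylate-binding protein genes Gbp2 and Gbp3, neighbours on chromosome 3, differed by 0.26 (adjusted p = 0.22) and 0.43 (adjusted p = 0.44), and Gbp3 by 0.73 without that array (adjusted p = 0.13).

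The 7 remaining measured members showed the smallest group median, -0.02, the same as all genes (0.10 without DKO replicate 3). Rtp4, which dampens interferon responses, measured 10.01, 10.15 and 9.95 in WT, 10.16, 10.22 and 10.12 in Stab1KO, 10.07, 9.89 and 10.04 in Stab2KO, and 10.35, 10.68 and 10.11 in DKO, with 2 DKO arrays above all others. It differed from WT by 0.34 ± 0.13 (adjusted p = 0.21). The others were Ifi27, Ifi35, Xaf1, Parp9, Parp14 and Trim30a, with differences from WT between -0.20 (Ifi27) and 0.20 (Xaf1), and between -0.11 and 0.35 for the same pair without DKO replicate 3. Trim30a has close paralogues that its row may also measure.

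**Figure D3:**
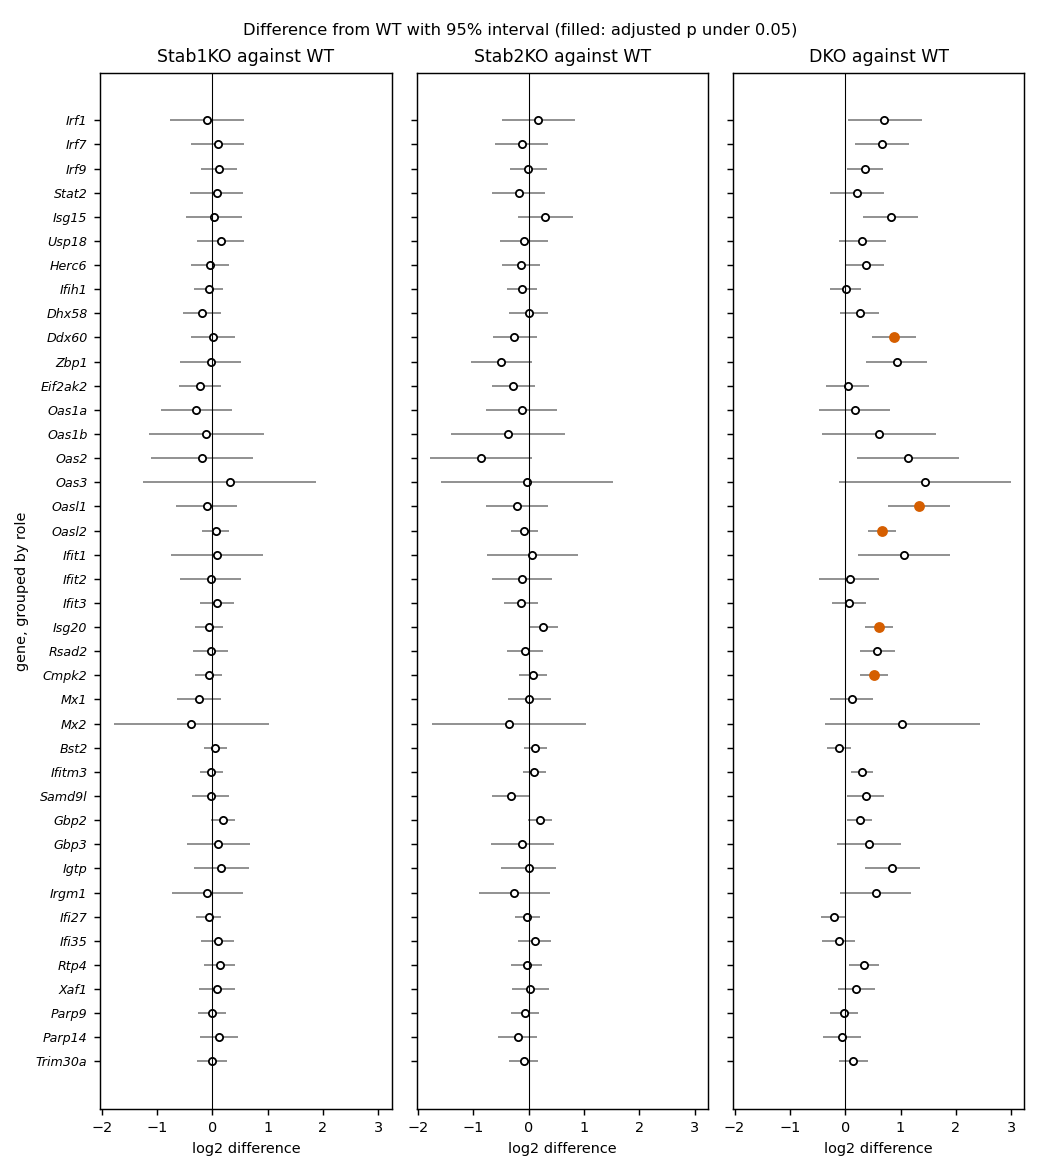
Log2 difference from WT with its 95% interval for each of the 40 genes, in Stab1KO, Stab2KO and DKO, from limma on all 12 arrays. Filled points have an adjusted p under 0.05. All 5 filled points are in the DKO panel, where 35 of the 40 differences are above 0. Of all genes tested, 1.80% were called in DKO against WT.

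Loss of 1 stabilin alone was compared with WT gene by gene. In Stab1KO, limma called 0 of the 40 members at an adjusted p under 0.05, where 0.308% of all genes were called, and 0 members had an unadjusted p under 0.05. With array weights it called 0 members, where 0.329% of all genes were called. The differences ran from -0.38 (Mx2) to 0.31 (Oas3), with a median of -0.01 against 0.01 over all genes. For Oasl1 the difference was -0.10 with a 95% interval from -0.66 to 0.45, and for Oasl2 0.06 with an interval from -0.19 to 0.30. Gbp2 was the member whose 3 Stab1KO arrays lay above all WT arrays (5.36% of all genes did so), and Mx2 the one whose 3 lay below (4.72%).

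In Stab2KO, limma called 0 of the 40, where 0.296% of all genes were called, and 1 member had an unadjusted p under 0.05. Array weights again gave 0 members, where 0.616% of all genes were called. The differences ran from -0.87 (Oas2) to 0.30 (Isg15), with a median of -0.09 against 0.01 over all genes. Of the 40, 28 were below 0, and the share of all genes below 0 is not given here. Without WT replicate 2 the median of the members was 0.01, and in the other fits without 1 array it was -0.12 to -0.06. Isg20 (0.26 ± 0.12, adjusted p = 0.64), Bst2 and Gbp2 were above WT in all 3 arrays, as 8.09% of all genes were. Stat2, Parp14, Zbp1, Samd9l and Irgm1 were below WT in all 3, as 7.63% of all genes were. Zbp1 differed from WT by -0.50 ± 0.25 (adjusted p = 0.70) and Samd9l by -0.32 ± 0.15 (adjusted p = 0.69). Between the single knockouts limma called 0 members, where 0.108% of all genes were called, and 1 member had an unadjusted p under 0.05. Array weights gave 0 members there, where 0.171% of all genes were called.

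DKO was then compared with each single knockout. Against Stab1KO, 4 members were higher (Oasl1, Isg20, Oasl2 and Cmpk2) and 0 lower, where 0.945% of all genes were called, 0.546% higher and 0.400% lower. Against Stab2KO, 7 were higher (Oasl1, Oasl2, Ddx60, Zbp1, Oas2, Rsad2 and Samd9l) and 0 lower, where 3.42% were called, 1.30% higher and 2.12% lower. The median difference was 0.41 against Stab1KO and 0.40 against Stab2KO, with -0.03 over all genes in both. These comparisons share the DKO arrays with the one against WT.

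The departure from additivity asks whether the loss of both receptors differs from the sum of the single losses. It was positive for 36 of the 40 members, with a median of 0.47. No member passed limma's threshold, the lowest adjusted p being 0.11 (Oasl1, 1.65 ± 0.35). At an unadjusted p under 0.05 there were 12 members, against 12.5% of all genes, and 0.05% of all genes were called. With array weights 1 member, Zbp1, was called, where 0.829% of all genes were. Without DKO replicate 3 there were 2, Mx2 at 2.74 (adjusted p = 0.012) and Irgm1 at 1.33 (adjusted p = 0.019), where 0.466% of all genes were called. A test for any difference among the 3 contrasts with WT called Oasl2, Oasl1, Ddx60 and Isg20, where 1.62% of all genes were called.

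The DKO arrays carried the signal unequally. DKO replicate 2 was above the 9 arrays of the other genotypes for 32 of the 40 members (11.1% of all genes), DKO replicate 1 for 22 (11.6%) and DKO replicate 3 for 13 (13.6%). DKO replicate 3 was below those 9 for 11 members, a share of 27.5% that was close to the 27.3% of all genes. All 3 DKO arrays were above the 9 others for 8 members, namely Isg20, Oasl1, Oasl2, Rsad2, Cmpk2, Ddx60, Zbp1 and Samd9l (2.54% of all genes). All 3 were above all WT arrays for 13 members (8.97%) and below them for 0 (15.0%). The 11 members that were lowest in DKO replicate 3 were Ifit2, Ifi27, Ifi35, Oas1a, Stat2, Mx2, Ifih1, Xaf1, Bst2, Parp9 and Parp14, whereas Isg20, Oas2, Oas3, Cmpk2, Ddx60, Trim30a, Zbp1 and Samd9l were highest there (11.4% of all genes). DKO replicate 2 was the highest of the 12 arrays for 26 members (6.78% of all genes) and DKO replicate 1 for 0 (6.86%).

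**Figure D4:**
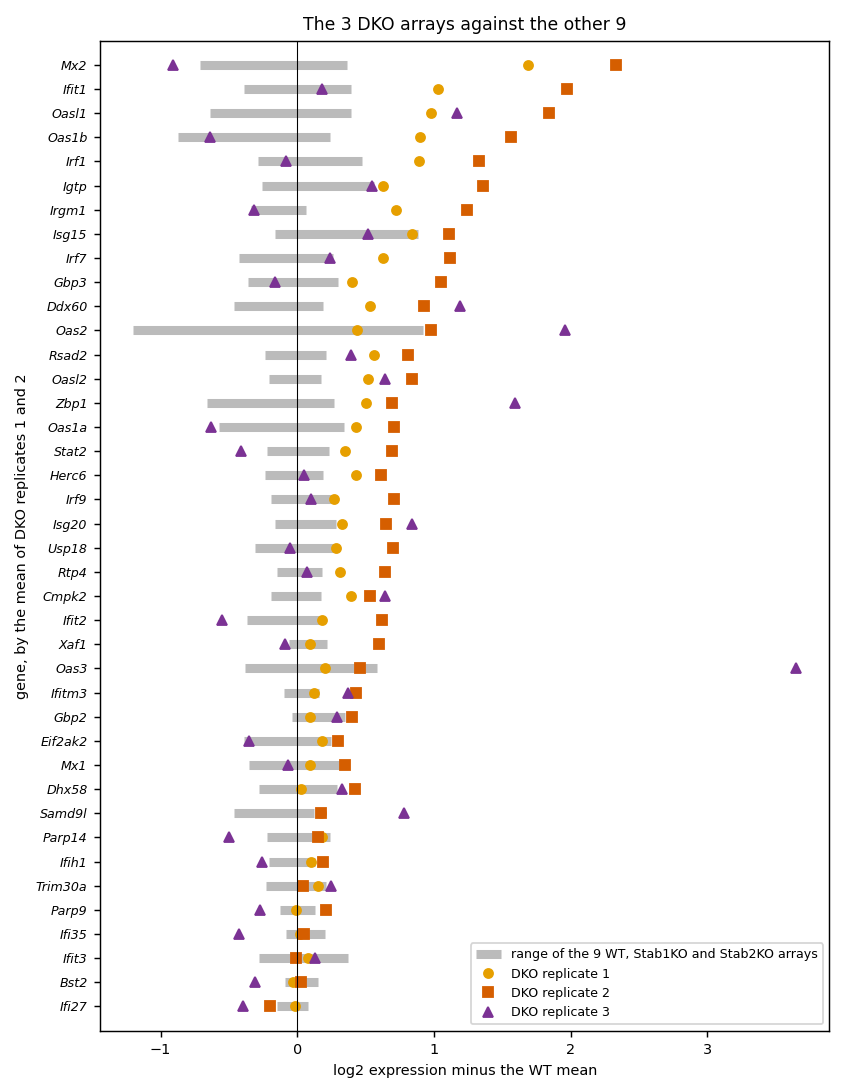
Position of each DKO array relative to the 9 arrays of the other genotypes, for each of the 40 genes on the log2 scale. DKO replicates 1 and 2 lie above the other genotypes together for 22 genes (5.67% of all genes tested). DKO replicate 3 lies above them for 13 (13.6% of all genes) and below them for 11. That last share, 27.5%, is close to the 27.3% of all genes.

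Leaving out DKO replicate 3 moved the median difference from WT from 0.36 to 0.49 and the called members from 5 to 7, of which Oasl1, Oasl2 and Isg20 were shared. The genes gained were Ifit1, Irf1, Irgm1 and Mx2, and those lost were Ddx60 and Cmpk2, where 1.77% of all genes were called and 1.04% were called higher. Against Stab1KO the count went from 4 to 8 (1.49% of all genes called, 1.12% higher), and against Stab2KO from 7 to 15 (3.42% called, 1.96% higher). Leaving out DKO replicate 2 instead lowered the median to 0.20 and left Oasl2 as the 1 called member. When WT replicate 1 or WT replicate 3 was left out, 0 members were called against WT, and 2 remained without WT replicate 2. Without Stab1KO replicate 3 or Stab2KO replicate 2, which enter through the shared estimate of spread, 3 were called. Against Stab1KO, 0 were called without DKO replicate 2 or any 1 of the Stab1KO arrays, and against Stab2KO 0 without Stab2KO replicate 2 and 2 without Stab2KO replicate 1. Weighting arrays by their fit gave 14 called members against WT (4.63% of all genes called, 2.34% higher), 9 against Stab1KO (1.94% and 1.26%) and 19 against Stab2KO (7.45% and 3.23%). With only the 6 arrays of a comparison in the fit, 0 members were called in any comparison, although the differences themselves were the same. For these fits, and for those without an array other than DKO replicate 3, the share of all genes called is not given here. Whether the lost calls were particular to the members was therefore not tested.

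Other cell types and handling genes also differed between the arrays. The 14 neutrophil genes were all above 0 in the difference between DKO and WT, with a median of 2.83. Of the 14, limma called 0, where 1.80% of all genes were called. An unadjusted p under 0.05 was found for 8, as for 16.7% of all genes. All 14 were again above 0 without DKO replicate 3, with a median of 0.96, and Lcn2 was called (1.77% of all genes were). The 10 monocyte genes had a mean in all 3 DKO arrays above that of the 9 others. The median difference of the monocyte genes between DKO and WT was 0.99, with Ace and Nr4a1 called, where 1.80% of all genes were. It was 0.40 without DKO replicate 3, with Ly6c2 called, where 1.77% of all genes were. Which cells gave the calls in the neutrophil and monocyte lists was not tested. The 13 stellate cell genes had a mean of 7.41 to 7.87 in WT and of 6.03 to 6.57 in all 9 knockout arrays. Of the 13, 7 were called lower in DKO than in WT, as 1.05% of all genes were. The part of neutrophil, monocyte or stellate cell RNA in the interferon-stimulated genes was not tested. Genes of the immediate early response, which cell isolation can raise, were higher in all 3 DKO arrays. The mean of 17 such genes was 11.85, 12.02 and 11.68 in DKO and 10.57 to 11.12 in WT. It was 10.45 to 10.80 in Stab1KO and 10.68 to 11.51 in Stab2KO. Of the 17, 5 were called higher against WT, as 0.754% of all genes were. The mean of the 40 interferon-stimulated genes was 9.05, 9.38 and 8.90 in DKO, 8.54, 8.84 and 8.60 in WT, 8.57 to 8.70 in Stab1KO and 8.50 to 8.63 in Stab2KO. Both lists were thus highest in DKO, and the part of either list in the other was not tested. The 14 Kupffer cell genes had a mean of 8.23, 9.27 and 8.48 in DKO, 7.82, 9.79 and 9.12 in WT, 8.48, 8.46 and 9.37 in Stab1KO, and 7.46 to 7.88 in Stab2KO. The 11 genes of plasmacytoid and other dendritic cells were flat, at 5.98 to 6.25 in all 12 arrays. Within WT, replicate 2, which had the highest Kupffer cell mean of the 12 arrays, was the highest WT array for 33 of the 40 members, as it was for 29.9% of all genes. The part of Kupffer cell RNA in that was not tested.

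**Figure D5:**
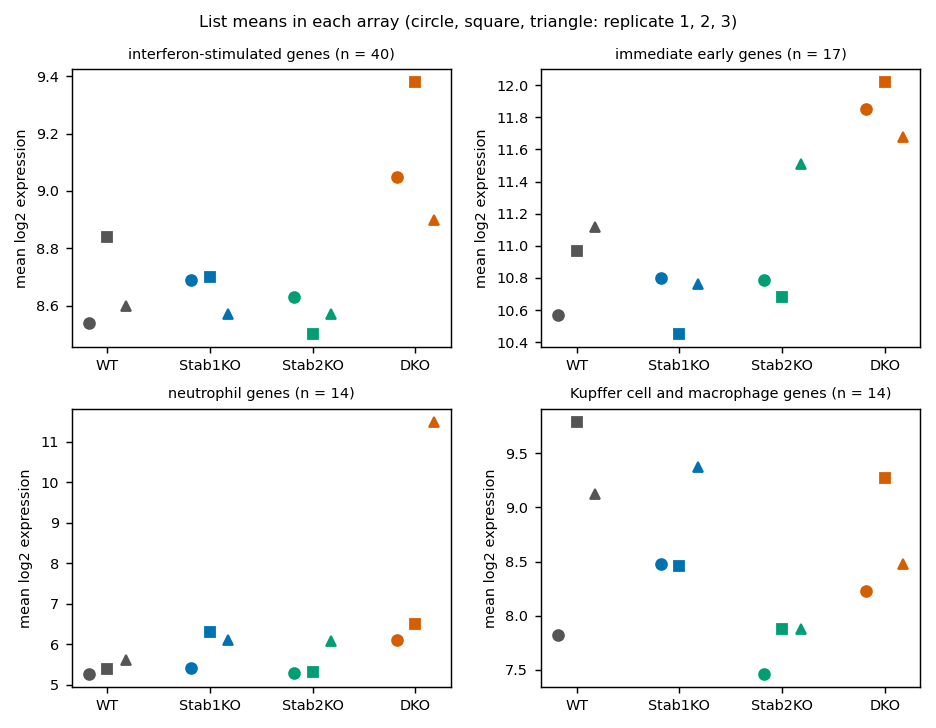
Mean log2 expression of gene lists in each array, by genotype (circle, square and triangle for replicates 1, 2 and 3). The interferon-stimulated genes and the immediate early genes are higher in all 3 DKO arrays than in the other 9, while the neutrophil mean is high in DKO replicate 3 (11.49).

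Upstream of these genes, none of 17 measured interferon ligand genes was called in DKO against WT by limma, with 1 at an unadjusted p under 0.05, as 16.7% of all genes were, and a median of -0.01. Their mean was 4.57 to 4.75 log2 in every array, below the array median. Ifnb1, the first type I interferon made by many cells, measured 3.57, 3.76 and 3.87 in WT and 3.69, 3.96 and 3.79 in DKO. Ifng, made mainly by lymphocytes, measured 5.06, 5.02 and 5.54 in WT and 6.65, 5.86 and 5.61 in DKO, a difference of 0.83 ± 0.27 (adjusted p = 0.15) and of 1.05 without DKO replicate 3 (adjusted p = 0.086). The DKO arrays lay above WT, the last narrowly. The mean of 14 genes of T cells and natural killer cells was 5.47, 5.72 and 6.17 in WT and 6.36, 6.10 and 6.18 in DKO. It was 5.59 to 6.20 in Stab1KO and 5.83 to 6.41 in Stab2KO. The part of RNA of these cells in the Ifng values was not tested. Ifna15 differed by -0.27 (adjusted p = 0.46).

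Of the 6 receptor genes, limma called 0 against WT, and 0 had an unadjusted p under 0.05, against 16.7% of all genes. The receptor subunits Ifnar1 and Ifnar2 differed from WT by 0.08 (adjusted p = 0.62) and 0.12 (adjusted p = 0.49), and Ifngr2 by -0.15 (adjusted p = 0.38). Ifnlr1, the interferon lambda receptor subunit, measured 4.72, 4.74 and 8.14 in DKO and 4.44 to 4.69 in WT, so its difference of 1.34 ± 0.70 (adjusted p = 0.37) rested on the array with the high neutrophil genes and was 0.20 without it (adjusted p = 0.55). Whether neutrophil RNA had a part in it was not tested.

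Of 14 genes of JAK-STAT signalling and its brakes, 0 were called against WT, with 3 at an unadjusted p under 0.05, beside the 16.7% of all genes. The 2 with the largest differences were the phosphatase gene Ptpn6 (1.17 ± 0.71, adjusted p = 0.44) and the feedback inhibitor Socs3 (0.47 ± 0.24, adjusted p = 0.36). Ptpn6 measured 7.38, 8.71 and 8.31 in WT and 8.06, 8.44 and 11.42 in DKO, so its difference rested on DKO replicate 3 and was 0.11 without it (adjusted p = 0.93). Stat3, which carries interleukin-6 family signals, was called higher in DKO than in Stab2KO, by 0.37 (adjusted p = 0.041), and was not called without DKO replicate 3 (0.31, adjusted p = 0.081). Of 19 genes for sensors, adaptors and kinases, 0 were called against WT, again with 3 at an unadjusted p under 0.05. Against Stab2KO the kinase gene Ikbke rose by 0.75 (adjusted p = 0.042), a call lost without DKO replicate 3 (0.62, adjusted p = 0.079). Irf3, the factor that such kinases activate, was lower by 0.40 on the log2 scale (-0.40, adjusted p = 0.029, and -0.32 with adjusted p = 0.041 without that array). Irf3 was at 9.83 to 9.85 in the Stab2KO arrays, 9.53 to 9.60 in WT and 9.29 to 9.55 in DKO, so Stab2KO was the genotype that stood above the others.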

How the data were processed

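Gene expression was measured in 12 arrays, each a pool of 3 mice, and the labels' genotypes and titles gave the 4 groups. The deposited values are log2 expression from RMA, the tool that the submitters' processing notes list. RMA subtracts background, equalizes the distributions of the arrays and combines the probes of a set. Its version and the genome build are not given in the sources used. Background correction could not be varied from these processed values. Of 24973 rows, 24015 had 1 symbol in the platform annotation, 0 had several and 958 were not listed there. Rows sharing a symbol were reduced to the one with the highest mean, which left 24011 genes. No filter was set on low values: 39 of the 40 members had a mean above the 40th percentile (4.45 log2), and Mx1 did not. For arrays, their number limits the precision.

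Tests used limma (version 3.58.1, R 4.3.3), with 4 group means in 1 linear model over the 12 arrays, two-sided moderated tests, and Benjamini-Hochberg adjustment over all genes within each of 7 contrasts, plus an F-test of the 3 contrasts against WT. Called means an adjusted p under 0.05, always from limma. Errors are moderated standard errors, and intervals are at 95%. Scripts were tested on simulated data. Tables and figures were made with Python 3.11.15, pandas 2.3.3 and matplotlib 3.10.9.

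The members and all gene lists were chosen with earlier results of these data known. All members could be named, those called in any test in full, and per role the uncalled member with the largest difference between DKO and WT as values. Of the pathway lists, called genes were named, or else the 2 with the largest difference. Ifnb1, Ifnar1 and Ifnar2 were named for their role after their values were seen.

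Of 18 same-numbered pairs of arrays across groups, 4 had a correlation of deviations over 0.1 (range -0.0636 to 0.291), and most were above 0. Differently numbered pairs ran from -0.274 to 0.213, and most were below 0. Whether arrays with the same number belong together was not tested, and the labels give the numbers no meaning. The alternatives used that number as a block, a filter at the 40th percentile, eBayes with trend and robust settings, array weights, a further centring and quantile step, all rows, a log2 difference of at least 0.5, fits to the 6 arrays of a comparison, and fits without 1 array. Promoter windows are RefSeq's, from GRCm38.p6, and all 40 members matched a RefSeq symbol.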

Additional observations from a re-analysis of the deposited data

How the results depend on the processing

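No called value of the 40 members changed sign under any alternative. Against WT, Stab1KO and Stab2KO kept 0 called members under all 20 alternatives, as did Stab1KO against Stab2KO. The count for DKO against WT was 5 and became 14 with array weights, 0 with only the compared arrays, and 0 to 7 when 1 array was left out. DKO against Stab1KO had 4, which became 9 with array weights, 0 with only the compared arrays and 0 to 8 when 1 array was left out. DKO against Stab2KO had 7, which became 19, 0 and 0 to 15. The departure from additivity had 0, which became 1 with array weights and 0 to 2 with 1 array left out. The F-test had 4, which became 14 and 0 to 6. Fits to only the compared arrays have fewer residual degrees of freedom than the shared fit. They also estimate the spread without the arrays of the other genotypes. The cause of all these moves, and whether they were particular to the members, was not tested. Median centring with quantile normalization, every row tested and a minimum difference of 0.5 gave 5, 4 and 7 for the 3 DKO comparisons.

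With the replicate number as a block, 5, 3 and 8 members were called in DKO against WT, Stab1KO and Stab2KO, 0 for the departure from additivity, 0 in each of the other contrasts and 3 by the F-test. Against WT, 3 of the 5 were shared with the fit without the block. Whether the numbers pair the arrays is not known, so this is a value only.

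When 1 array was left out, Oasl2 stayed called against WT in 10 of 12 fits, Oasl1 in 9, Isg20 in 7, Ddx60 in 4 and Cmpk2 in 1. Against Stab2KO the numbers were 11 for Oasl1 and Ddx60, 10 for Oasl2 and Zbp1, 6 for Oas2, 4 for Rsad2 and 2 for Samd9l. Against Stab1KO they were 7 for Oasl1, 6 for Isg20, 3 for Oasl2 and 1 for Cmpk2. A p-value that misses the threshold with 3 pools a group does not show equal levels, and no detection calls were used, so low values such as those of Mx1 and Ifnb1 hold an unknown share of background.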

Other observations

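Beyond the 40 genes, 42 other interferon-stimulated genes were measured. In DKO against WT, 1 was called higher, Slfn8, and 0 lower, where 0.754% of all genes were called higher and 1.05% lower. The median difference of the 42 was 0.08 log2, against 0.36 for the 40 members. Slfn8, a Schlafen family gene, measured 6.85, 7.04 and 7.14 in WT, 7.39, 7.11 and 7.32 in Stab1KO, 6.78, 6.68 and 6.89 in Stab2KO, and 7.56, 7.74 and 7.65 in DKO. The DKO arrays lay close together and above the other 9. The difference was 0.64 ± 0.10 from WT (limma, adjusted p = 0.016) and 0.87 from Stab2KO (adjusted p = 0.0065). Helz2, a nuclear helicase coactivator gene, and Trim25, the ubiquitin ligase that acts on the RNA sensor RIG-I, were also higher in DKO than in Stab2KO, by 0.80 (adjusted p = 0.032) and 0.57 (adjusted p = 0.036). All 4 of these calls held without DKO replicate 3. Helz2 (0.69, adjusted p = 0.040), Slfn2 (1.18, adjusted p = 0.028) and Gm4951 (0.91, adjusted p = 0.037) were then called against WT as well.

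Genes known mainly as interferon gamma targets were measured too. Of 17, 16 were higher in DKO than in WT, with a median of 0.40 log2, 7 had an unadjusted p under 0.05 (16.7% of all genes did) and 0 were called by limma. Without DKO replicate 3 the median was 0.48. Cxcl10, a chemokine that attracts T cells, measured 10.47, 11.15 and 11.33 in WT, 10.67, 10.42 and 10.66 in Stab1KO, 11, 10.65 and 11.89 in Stab2KO, and 12.22, 12.79 and 11.16 in DKO. Again 2 DKO arrays were above all others and DKO replicate 3 lay in the WT range (difference 1.07 ± 0.41, adjusted p = 0.22, and 1.52 with adjusted p = 0.062 without that array). Without it Cxcl10 was called against Stab1KO (1.92, adjusted p = 0.03) and not against Stab2KO (1.32, adjusted p = 0.07). Iigp1, an immunity-related GTPase gene, measured 9.45, 9.97 and 9.59 in WT and 11.06, 11.42 and 9.79 in DKO, with the same split (1.08 ± 0.35, adjusted p = 0.16), and was called without DKO replicate 3 (1.57, adjusted p = 0.0073). Serping1, which encodes the complement C1 inhibitor, differed from WT by 0.00 and was called higher than in Stab2KO (0.96, adjusted p = 0.028, and 0.87 with adjusted p = 0.048 without that array). Its Stab2KO arrays lay at 7.95 to 8.51, against 8.99 to 9.24 in WT.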
